A study of Mus musculus with 3 samples.

Results

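The genes that write and erase DNA methylation were examined in Colon26, a mouse line of colon adenocarcinoma, and in LuM1 and NM11, which are sublines of it. They were 10 genes, *Dnmt1*, *Dnmt3a*, *Dnmt3b*, *Dnmt3l*, *Uhrf1*, *Uhrf2*, *Tet1*, *Tet2*, *Tet3* and *Tdg*, chosen by name for their roles and found through the RefSeq accessions of their probes. The array named 22911 genes in all, and 20 of its 32994 named probes read these 10. Colon26, LuM1 and NM11 cells are of the BALB/c strain and labelled female. Whether a subline is 1 clone is not given in the sources used here. LuM1 is the rapidly metastatic subline, and Colon26 and NM11 are the slowly metastatic lines. All were kept in RPMI medium with serum, penicillin, streptomycin and amphotericin B and received no agent. After 3 days of culture, 0.1 µg of total RNA from each line was labelled with Cy3 and hybridized to 1 array, 3 arrays in all.

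In mammals, DNA methylation is a methyl group on the cytosine of CG dinucleotides. DNMT1 copies it onto the new strand behind the replication fork, where UHRF1 recognises DNA methylated on the old strand alone and recruits it, while DNMT3A and DNMT3B place methyl groups on unmethylated DNA with the help of DNMT3L, which has no catalytic activity of its own. TET1, TET2 and TET3 oxidise the methyl group in steps, and TDG, thymine DNA glycosylase, cuts out the most oxidised bases so that base excision repair can restore cytosine. *Dnmt3l* is known for its expression in germ cells and embryonic stem cells.

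Signals are scaled spot intensities in array units, brought to the same 75th percentile of 585.1 on every array. The error after each signal is that of the scanner software, close to 10.0% of bright signals and a larger share of dim ones. With 1 array per line there was no test and no replicate check, so a difference is described here against 2 such errors of its log2 ratio and is called where it is at least 2-fold. Differences between lines therefore cannot be told apart from differences between cultures or RNA preparations. Where several probes read a gene, the brightest over the 3 arrays represents it, and signals of different probes are not comparable. All 10 representative probes were well above background on all 3 arrays, as were 16 of the 20 probes, and 2 probes were so on none.

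The largest differences lay in *Tdg*, *Dnmt3l* and *Dnmt3a*. *Tdg* was 4.0-fold lower in LuM1 cells than in Colon26 cells, *Dnmt3l* was 5.22-fold higher in NM11 cells than in Colon26 cells, and *Dnmt3a* was 2.11-fold lower in LuM1 cells than in Colon26 cells. Against Colon26 cells, 2 of the 10 genes were at least 2-fold lower in LuM1 cells beside 11.8% of all genes with a ratio, and 0 were at least 2-fold higher beside 13.1%. In NM11 cells, 1 was at least 2-fold higher than in Colon26 cells beside 8.33% of all genes, and 0 were lower beside 7.9%. Between the sublines, 2 were lower by 2-fold or more in LuM1 than in NM11 cells beside 8.5% of all genes, and 0 were higher beside 11.1%. With 10 genes these counts lie near the background shares. The median log2 ratio of the 10 genes was -0.11 for LuM1 over Colon26, -0.14 for NM11 over Colon26 and -0.40 for LuM1 over NM11. Over all genes measured on both arrays it was -0.13, -0.02 and -0.11.

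The DNA just upstream of *Tdg*, *Dnmt3l* and *Dnmt3a* is shown because these genes held the at least 2-fold differences and because their promoters differ in CG content, the substrate of the enzymes themselves. Each line gives the 250 bases before an annotated start in RefSeq on GRCm38.p6, 5′ to 3′ on the gene's strand, with every CG in capitals.
Tdg, chr10:82629588-82629837 (+ strand): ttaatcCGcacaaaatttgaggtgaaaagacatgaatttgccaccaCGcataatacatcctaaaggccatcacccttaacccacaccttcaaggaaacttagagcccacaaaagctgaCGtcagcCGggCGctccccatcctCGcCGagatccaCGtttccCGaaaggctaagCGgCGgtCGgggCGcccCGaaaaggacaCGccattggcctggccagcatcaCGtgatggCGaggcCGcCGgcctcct
Dnmt3l, the outermost start, chr10:78042037-78042286 (+ strand): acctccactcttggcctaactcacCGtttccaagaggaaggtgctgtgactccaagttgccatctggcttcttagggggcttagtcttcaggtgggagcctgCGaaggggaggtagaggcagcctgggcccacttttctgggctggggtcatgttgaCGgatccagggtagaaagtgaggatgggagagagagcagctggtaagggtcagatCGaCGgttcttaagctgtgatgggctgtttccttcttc
Dnmt3l, the middle start, chr10:78049592-78049841 (+ strand): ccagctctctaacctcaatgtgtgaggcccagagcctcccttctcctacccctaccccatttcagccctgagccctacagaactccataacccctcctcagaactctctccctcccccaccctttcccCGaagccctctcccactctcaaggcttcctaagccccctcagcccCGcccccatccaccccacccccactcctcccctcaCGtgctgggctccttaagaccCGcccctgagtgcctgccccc
Dnmt3l, the innermost start, chr10:78055085-78055334 (+ strand): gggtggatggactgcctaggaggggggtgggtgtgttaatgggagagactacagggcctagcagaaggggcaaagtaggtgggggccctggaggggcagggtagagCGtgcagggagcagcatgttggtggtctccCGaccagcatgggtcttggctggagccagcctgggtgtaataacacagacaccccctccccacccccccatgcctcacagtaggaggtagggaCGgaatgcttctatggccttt
Dnmt3a, the start with the most CG, chr12:3806910-3807159 (+ strand): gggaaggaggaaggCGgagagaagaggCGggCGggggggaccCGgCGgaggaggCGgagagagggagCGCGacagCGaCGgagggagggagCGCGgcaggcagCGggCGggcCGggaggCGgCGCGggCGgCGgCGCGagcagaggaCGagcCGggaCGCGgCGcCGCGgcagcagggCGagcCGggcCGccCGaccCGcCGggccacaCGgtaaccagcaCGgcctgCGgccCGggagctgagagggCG
The *Tdg* window held 19 CG, the *Dnmt3l* windows 5, 4 and 3, and this *Dnmt3a* window 40. Over 32841 such windows of all genes in the table, the median was 6 CG, with quartiles of 2 and 16. The 3 *Dnmt3l* windows thus held fewer CG than the median window, whereas the *Tdg* window and this *Dnmt3a* window lay above the upper quartile. The other annotated *Dnmt3a* starts had 38 and 15 CG, and the former window overlaps the one shown. Which start gave the RNA that was measured is not known, and methylation was not measured.

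All 10 genes matched the promoter table, with 17 windows. Among the maintenance genes, the *Dnmt1* windows had 2, 7 and 26 CG, the *Uhrf1* windows 10 and 30 and the *Uhrf2* window 23. The single windows of *Dnmt3b*, *Tet1*, *Tet2* and *Tet3* had 21, 15, 51 and 17 CG, and *Tet2* was the richest of the 17. The letters TTTCCCGC and TTTGGCGC, which E2F factors of the cell cycle are known to bind, were searched on both strands. A window that held both, also where they overlap, counted once. Of the 17 windows 0 held either, beside 1.3% of all windows. At so low a share, 17 windows are too few for 0 to differ from the background. Other spellings that E2F factors may bind were not searched, so the search does not show that these windows lack E2F sites.

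**Figure D1:**
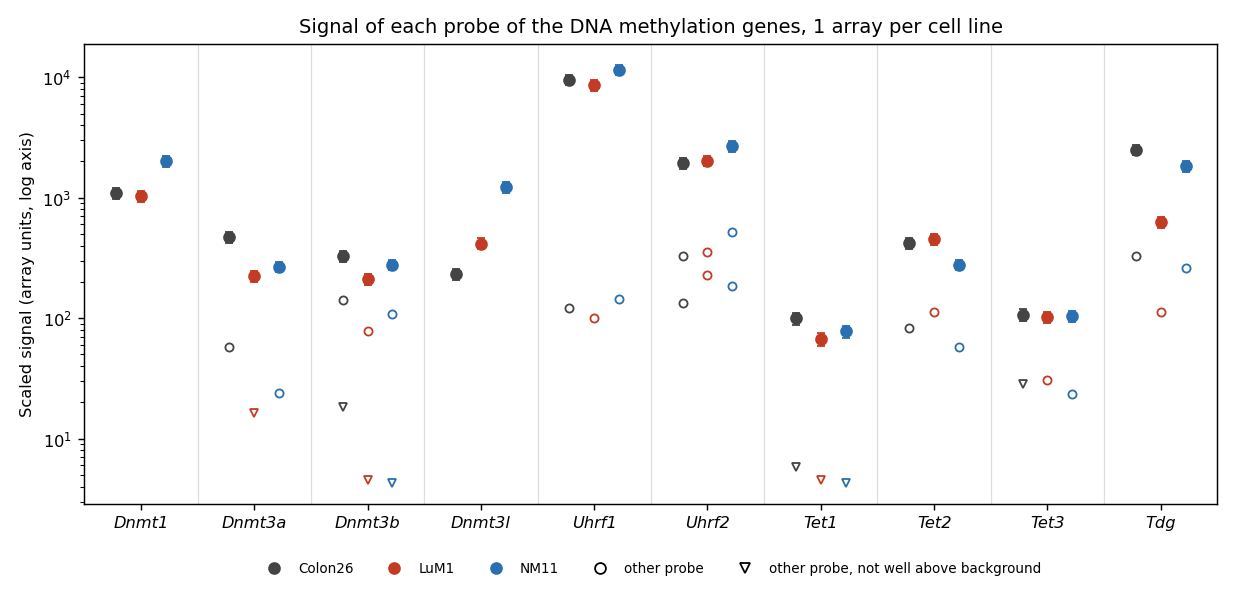
Scaled signal of every probe of the 10 genes (vertical log axis, array units) in Colon26, LuM1 and NM11 cells, 1 array each. Filled points are representative probes with the scanner software's error as bars, and open symbols are other probes. *Dnmt3l* stands highest in NM11 cells at 1217, and *Tdg* lowest in LuM1 cells at 628. Heights of different probes cannot be compared.

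*Dnmt1*, the maintenance methyltransferase, differed in NM11 cells alone. Its only probe (A_51_P195573) gave 1087 ± 109 in Colon26 cells, 1027 ± 103 in LuM1 cells and 2018 ± 202 in NM11 cells. The Colon26 and LuM1 signals lay within 2 errors of each other, and the NM11 signal stood above both. The level in NM11 cells was 1.86-fold that in Colon26 cells (log2 ratio 0.89, error 0.20), and that in LuM1 cells was 1.96-fold lower than in NM11 cells (log2 ratio -0.97, error 0.20). Of all measured genes, 7.56% had as high a ratio of NM11 over Colon26. Neither difference of *Dnmt1* reached 2-fold under any of 12 other ways of processing, and both kept their sign. With scaling to *Hprt* the log2 ratios were 0.40 and -0.39, each just within 2 errors.

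*Uhrf1*, the partner that brings DNMT1 to newly copied DNA, differed less. Its bright probe (A_55_P2035286) gave 9509 in Colon26, 8617 in LuM1 and 11522 in NM11 cells, so that LuM1 was lowest, Colon26 next and NM11 highest, and each step of this ranking lay within 2 errors. The lowest and highest, LuM1 and NM11, differed by just over 2 errors, with a log2 ratio of -0.42 (error 0.20) that turned to 0.17 with scaling to *Hprt*. A dimmer probe gave 120.5, 99.5 and 145.5, the same order of the lines.

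*Uhrf2*, a relative of *Uhrf1* that reads hydroxymethylated DNA, had 3 probes that did not agree. The brightest (A_51_P141772) gave 1931 in Colon26, 2019 in LuM1 and 2671 in NM11 cells, and another gave 325.9, 354.8 and 517. On both, NM11 cells were highest. The dimmest gave 133.1, 227.8 and 184.7, with LuM1 cells highest, so that the log2 ratio of LuM1 over NM11 was -0.40 and -0.54 on the former probes and 0.30 on the latter. No direction between the sublines can be given for this gene.

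The partners of maintenance methylation, a list of 12 genes with the clamp *Pcna*, the remodeler *Hells* and its partner *Cdca7*, were measured throughout. In LuM1 over Colon26, 2 of them were lower by 2-fold or more and 0 were higher, beside 11.8% and 13.1% of all genes. With the authors' processed values 1 was lower. *Cdca7*, which brings HELLS to chromatin, had signals of 8890 in Colon26, 2967 in LuM1 and 7719 in NM11 cells, a 3.00-fold lower level in LuM1 cells than in the parental line, and its other probe gave a log2 ratio of -1.48. Its relative *Cdca7l* was 2.55-fold lower, at 256.4, 100.6 and 179.3, a log2 ratio of -1.35 that became -0.90 with the authors' processed values. In NM11 over Colon26, 0 of the 12 reached 2-fold in either direction, beside 8.33% higher and 7.9% lower of all genes. The ligase *Lig1*, whose methylated form UHRF1 binds, had the largest ratio there at 1.69-fold higher (log2 ratio 0.76). Between the sublines, *Cdca7* was the only one of the list at least 2-fold lower in LuM1 cells, beside 8.5% of all genes. *Atrx*, a chromatin remodeler, was 1.5-fold higher in LuM1 than in NM11 cells. The list's median was -0.21, -0.07 and -0.26 for LuM1 over Colon26, NM11 over Colon26 and LuM1 over NM11, and the first and last of these turned positive with the authors' processed values (0.24 and 0.15). *Pcna* itself spanned 25409 to 30466.

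Since maintenance genes are transcribed mainly in dividing cells around S phase, genes of DNA replication and S phase were set beside them. Of 20 listed, 19 had a ratio. In LuM1 over Colon26 cells, 4 were at least 2-fold lower and 0 higher, beside 11.8% and 13.1% of all genes, 16 lay below 0, and the median log2 ratio was -0.53. With the authors' processed values 0 were at least 2-fold lower, 11 lay below 0 and the median was -0.086. In LuM1 over NM11 cells, 2 were at least 2-fold lower beside 8.5% of all genes, 18 of the 19 lay below 0, and the median was -0.64. With scaling to *Hprt*, 0 were at least 2-fold lower, 10 lay below 0 and the median was -0.051. In NM11 over Colon26 cells, 0 reached 2-fold, beside 8.33% higher and 7.9% lower of all genes, and the median was 0.04. Over all genes the medians of these 3 comparisons were -0.13, -0.11 and -0.02 in the same order. The part of S-phase genes in the levels of *Dnmt1*, *Uhrf1* and *Cdca7* was not tested. *Ccna2*, the cyclin of S phase, gave 11506 in Colon26, 5511 in LuM1 and 13606 in NM11 cells. *Ccne1*, the cyclin that starts S phase, was 2.47-fold lower in LuM1 cells than in the parental line, and *Chaf1a*, a histone chaperone at the fork, was 2.30-fold lower. *Mki67*, a marker of cycling cells, spanned 6877 to 8213 and was lowest in Colon26 cells.

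Of the enzymes that place new methyl groups, *Dnmt3a* had its highest signal in the parental line. Its brighter probe (A_55_P2178084) gave 469.1 in Colon26, 221.9 in LuM1 and 266.6 in NM11 cells. The Colon26 signal stood above both sublines by more than 2 errors, and the sublines lay within 2 errors of each other. The level was 2.11-fold lower in LuM1 cells (log2 ratio -1.08, error 0.21) and 1.76-fold lower in NM11 cells (log2 ratio -0.82, error 0.21). The second probe (A_52_P169048) gave 58.0 in Colon26, 16.3 in LuM1 and 23.8 in NM11 cells, where the LuM1 signal was not well above background. On it, the level was at least 2.88-fold lower in LuM1 cells and 2.44-fold lower in NM11 cells than in Colon26 cells. The difference of the brighter probe between LuM1 and Colon26 cells lies close to the 2-fold threshold, and it stayed past it in 7 of 12 other ways of processing, within log2 ratios of -1.30 to -0.63.

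*Dnmt3b*, the other catalytic enzyme, differed little. Its brightest probe (A_55_P2796609) gave 325.8 in Colon26, 210.7 in LuM1 and 278 in NM11 cells, and a second gave 140.6, 78.5 and 108.4. Both had the order LuM1, NM11, Colon26 from low to high, as *Dnmt3a* did, and for both genes the order of the sublines turned with scaling to *Hprt* and with the authors' processed values, and for *Dnmt3a* also with scaling to the E1A spike-in controls. Neighbours in this order lay within 2 errors on the brightest probe, while LuM1 and Colon26 cells differed by a log2 ratio of -0.63 (error 0.21). With the authors' processed values this ratio was -0.18, within 2 errors. Its remaining probe was well above background on no array.

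*Dnmt3l*, the cofactor without catalytic activity, differed in a different order from *Dnmt3a* and *Dnmt3b*. Its only probe (A_51_P496720) gave 233.3 ± 24.0 in Colon26, 416.7 ± 41.9 in LuM1 and 1217 ± 122 in NM11 cells. Both steps, from Colon26 to LuM1 and from LuM1 to NM11, exceeded 2 errors. The level was 5.22-fold higher in NM11 than in Colon26 cells (log2 ratio 2.38, error 0.21), and 193 of 12469 measured genes (1.55%) had as high a ratio. In LuM1 cells it was 1.79-fold the Colon26 level, and 2.92-fold lower in LuM1 than in NM11 cells (log2 ratio -1.55, error 0.20). The former at least 2-fold difference held in 12 of 12 other ways of processing, between log2 ratios of 1.89 and 2.42, and the latter in 11 of 12, all but scaling to *Hprt* (-0.96). With a single probe, no second sequence checks these values.

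The enzymes whose histone marks the DNMT3 proteins read were a list of 12, of which 11 were named on the array. *Nsd1*, which writes the methylation of histone H3 lysine 36 that DNMT3A binds, had a signal of 1017 in LuM1 and 1055 in NM11 cells, and its probe was not well above background in Colon26 cells (9.13). It was thus at least 38.5-fold higher in LuM1 and at least 39.9-fold higher in NM11 cells. A second *Nsd1* probe was likewise not well above background in Colon26 cells alone, with 206.4 in LuM1 and 220.1 in NM11 cells. The related enzymes *Nsd2* and *Nsd3* were well above background in all lines, *Nsd2* with 1693, 1104 and 980.8 and *Nsd3* with 1350, 1438 and 1468 in Colon26, LuM1 and NM11 cells. *Kmt2d*, an H3 lysine 4 methyltransferase, in LuM1 cells was 2.24-fold above Colon26 cells and 2.8-fold above NM11 cells on its only probe. With normexp background correction these log2 ratios were 0.83, no longer 2-fold, and 1.05. The other named members, *Setd2* and *Kdm1b* among them, lay within 2-fold in all comparisons. A second *Kdm1b* probe differed from the first, with 535.8 in Colon26 cells and signals not well above background in the sublines.

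**Figure D2:**
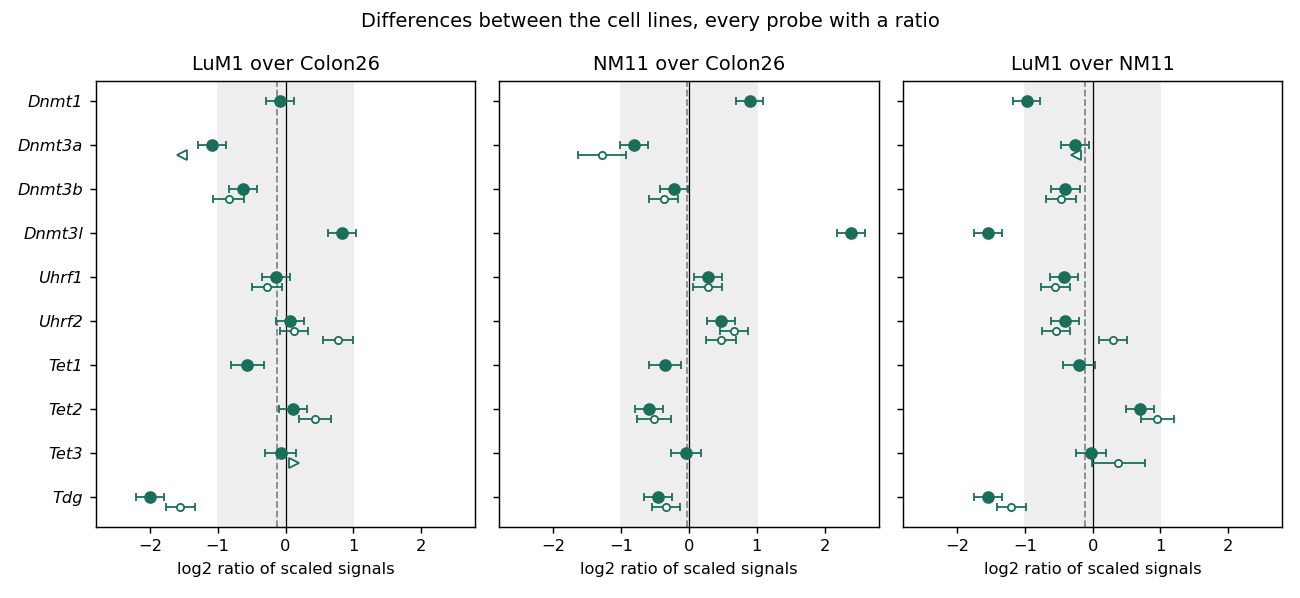
Log2 ratios of scaled signals (horizontal axes) for every probe with a ratio, in LuM1 over Colon26, NM11 over Colon26 and LuM1 over NM11. Filled points are representative probes, open points other probes, bars the scanner error, and triangles bounds pointing the way the true ratio may lie. Grey bands mark less than 2-fold, and dashed lines the median of all genes. *Tdg* reaches -2.00 in LuM1 over Colon26, and *Dnmt3l* 2.38 in NM11 over Colon26.

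The dioxygenases that start erasure differed less than *Tdg*. *Tet1*, known for its high level in embryonic stem cells, gave 99.6 in Colon26, 67.5 in LuM1 and 77.6 in NM11 cells (A_51_P512172). Ranked as LuM1, NM11 and Colon26 from low to high, each step lay within 2 errors. The ends of the ranking, LuM1 and Colon26, differed by more than 2 errors, with a log2 ratio of -0.56 (error 0.24). With the authors' processed values this ratio was -0.12, within 2 errors. Its other probe was well above background on no array. *Tet3* gave 107, 101.7 and 103.5 (A_55_P2175260), a span of 1.05-fold, so no difference was detectable between the lines with this probe. A dim second probe (A_52_P491273) gave 28.3, not well above background, in Colon26 cells, 30.8 in LuM1 cells and 23.6 in NM11 cells, and its log2 ratio of LuM1 over NM11 was 0.38 beside -0.03 for the brighter probe.

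*Tet2*, a tumour suppressor of blood cells, was lowest in NM11 cells. Its brighter probe (A_55_P2081303) gave 419.3 in Colon26, 452 in LuM1 and 278.1 in NM11 cells, where Colon26 and LuM1 cells lay within 2 errors and NM11 cells stood below both. Its level in LuM1 cells was 1.63-fold that in NM11 cells (log2 ratio 0.70, error 0.21). The dimmer probe gave 83.2, 112.8 and 58.1, the same order, with a log2 ratio of 0.96 between the sublines. In 3 of 12 other ways of processing this difference reached 2-fold.

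*Tdg*, the glycosylase that completes erasure, was lowest in LuM1 cells. Its brighter probe (A_51_P338336) gave 2512 ± 251 in Colon26, 628 ± 62.9 in LuM1 and 1830 ± 183 in NM11 cells. The LuM1 signal stood below both others by more than 2 errors, and NM11 cells also stood below Colon26 cells, by a log2 ratio of -0.46 with an error of 0.20. The level in LuM1 cells was 4.0-fold lower than in Colon26 cells (log2 ratio -2.00, error 0.20) and 2.92-fold lower than in NM11 cells (log2 ratio -1.54, error 0.20). Of all measured genes, 238 of 12394 (1.92%) had as low a ratio of LuM1 over Colon26, and 317 of 12848 (2.47%) of LuM1 over NM11. The second probe (A_55_P2044091) gave 330.3, 112.9 and 259.8, with log2 ratios of -1.55 over Colon26 and -1.20 over NM11, both also past 2-fold. The difference from Colon26 cells stayed past 2-fold in 12 of 12 other ways of processing, between log2 ratios of -2.00 and -1.55, and that from NM11 cells in 11 of 12, all but scaling to *Hprt* (-0.95). A pseudogene of *Tdg* is annotated in the mouse, and whether a transcript of it hybridized to these probes was not tested.

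**Figure D3:**
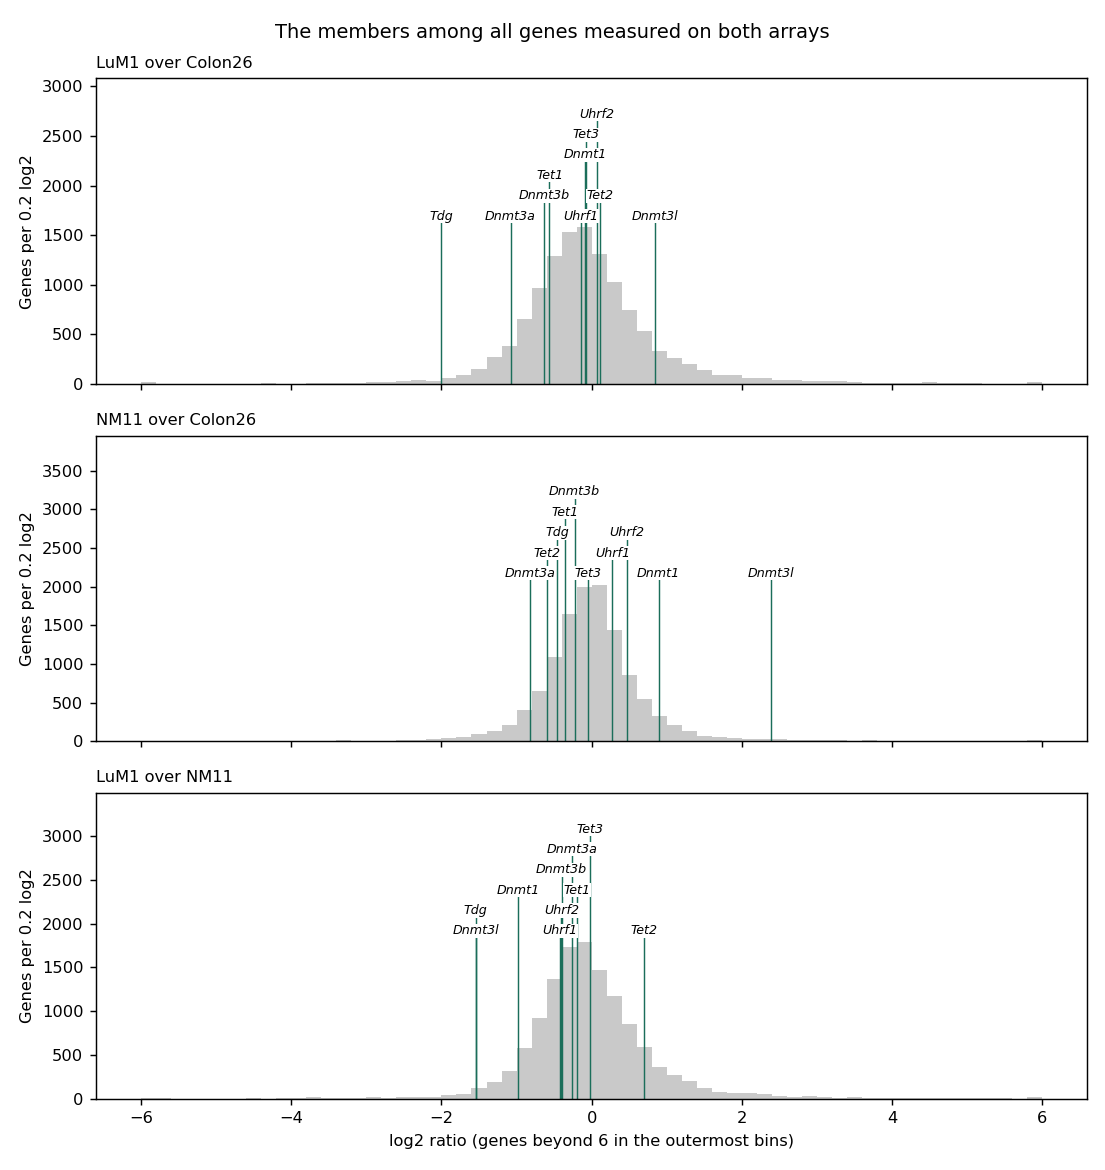
Number of genes per bin of 0.2 in the log2 ratio, over genes well above background on both arrays of each comparison, with vertical lines at the 10 genes. *Tdg* lies in the lower tail in LuM1 over Colon26 and *Dnmt3l* in the upper tail in NM11 over Colon26, while most of the other genes lie within the bulk of the distribution.

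Base excision repair, which acts after TDG, was followed with 20 genes, of which 19 had a ratio. In LuM1 over Colon26 cells, 1 was at least 2-fold higher and 1 lower, beside 13.1% and 11.8% of all genes. The median was -0.20, which turned to 0.24 with the authors' processed values. The enzymes directly downstream of the glycosylase differed less than *Tdg*. The endonuclease *Apex1* gave 5503 in Colon26, 4236 in LuM1 and 5500 in NM11 cells, and the polymerase *Polb* gave 3344, 3065 and 3781. *Mbd4*, a glycosylase that removes thymine from the same mismatches as TDG and also reads methyl-CG, had its highest signal in LuM1 cells. Its only probe was dim and gave 58.3 in Colon26, 159.5 in LuM1 and 56.4 in NM11 cells. LuM1 cells were thus 2.73-fold above Colon26 and 2.83-fold above NM11 cells. With normexp background correction these log2 ratios were 0.68 and 0.81, neither 2-fold, and 0 genes of the list were then at least 2-fold higher in LuM1 over Colon26. *Nthl1*, a glycosylase of oxidised bases, was 1.73-fold lower in LuM1 cells than in the parental line and differed little between the sublines. Of the stress proteins proposed to aid demethylation, *Gadd45b* gave 2230, 368.6 and 5735 in Colon26, LuM1 and NM11 cells, 6.05-fold lower in LuM1 and 2.57-fold higher in NM11 cells than in Colon26 cells. *Gadd45a* was 1.66-fold lower in LuM1 than in NM11 cells.

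The genes that supply or limit the TET enzymes were a list of 13, of which 11 had a ratio. *Idh1*, a source of the 2-oxoglutarate that TET proteins consume, was 4.37-fold higher in LuM1 and 5.25-fold higher in NM11 than in Colon26 cells, at 36.1 in Colon26, 157.7 in LuM1 and 189.4 in NM11 cells. The Colon26 signal of this probe lay close to the lowest signal called well above background there (26.4), and a second probe was not well above background there and at 36 and 31.7 in the sublines. *Idh3a*, the mitochondrial enzyme subunit, was 2.45-fold lower in LuM1 cells than in the parental line. *Cxxc5*, a CXXC domain protein that regulates TET2, gave 142.1 in Colon26, 664.2 in LuM1 and 61.0 in NM11 cells. It was 4.67-fold higher in LuM1 and 2.33-fold lower in NM11 cells than in Colon26 cells, and its second probe had the same order. *Vdr*, the vitamin D receptor, was not well above background in Colon26 cells and was at least 2.64-fold higher in LuM1 cells. With normexp background correction this bound was a log2 ratio of 0.46, no longer 2-fold.

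Of the enzymes that supply methyl groups, 4 of the 17 with a ratio in LuM1 over Colon26 cells were at least 2-fold lower and 0 higher, with a median of -0.49, beside 11.8% and 13.1% of all genes. With the authors' processed values 1 was lower, 1 was higher, and the median was -0.045. Of 18 with a ratio in LuM1 over NM11 cells, 5 were at least 2-fold lower and 0 higher, beside 8.5% and 11.1% of all genes. The median was -0.53 over those measured on both arrays. With scaling to *Hprt* 1 was lower and the median was 0.058. In NM11 over Colon26 cells 1 was higher and 0 lower, beside 8.33% and 7.9% of all genes, and the median was 0.05. *Shmt1*, a serine hydroxymethyltransferase that feeds one-carbon units into folate, gave 440.5 in Colon26, 212.8 in LuM1 and 810.5 in NM11 cells, and *Shmt2*, its mitochondrial counterpart, gave 18550, 8305 and 19408. *Mthfd1*, a folate enzyme, was 2.84-fold lower in LuM1 cells than in the parental line, but its other probe gave a log2 ratio of -0.19. *Nnmt*, which uses up S-adenosylmethionine, the methyl donor, was 3.20-fold higher in NM11 than in Colon26 cells on its brighter probe. *Cbs*, which diverts homocysteine from this cycle, was well above background in NM11 cells alone, at 27.2. Several of these enzymes also serve DNA synthesis, and the part of the S-phase levels given above in these values was not tested.

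The proteins that read methylated CG, with their relatives and partners, were a list of 12, all measured. In LuM1 over Colon26 cells 3 were at least 2-fold higher and 1 lower, beside 13.1% and 11.8% of all genes. In NM11 over Colon26 cells 0 were higher and 3 lower, beside 8.33% and 7.9% of all genes. With normexp background correction, 0 were higher in LuM1 over Colon26 and 2 were lower in NM11 over Colon26. With the authors' processed values, 0 were lower in LuM1 over Colon26 and 2 in NM11 over Colon26. *Mbd3*, a subunit of the NuRD complex that does not itself bind methylated CG, was 2.32-fold lower in LuM1 cells than in the parental line, at 16200 in Colon26, 6970 in LuM1 and 15606 in NM11 cells, and its dimmer probe gave a log2 ratio of -1.30. *Zbtb4*, a zinc finger reader, was lowest in NM11 cells on its brighter probe (1513, 1717 and 686.9), whereas its dimmer probe spanned 186 to 209.3. *Mbd5*, which also carries the domain without binding methylated CG, gave 594, 665.4 and 290.5, lowest in NM11 cells. The genes of this list thus differed in both directions, with no common order of the lines.

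**Figure D4:**
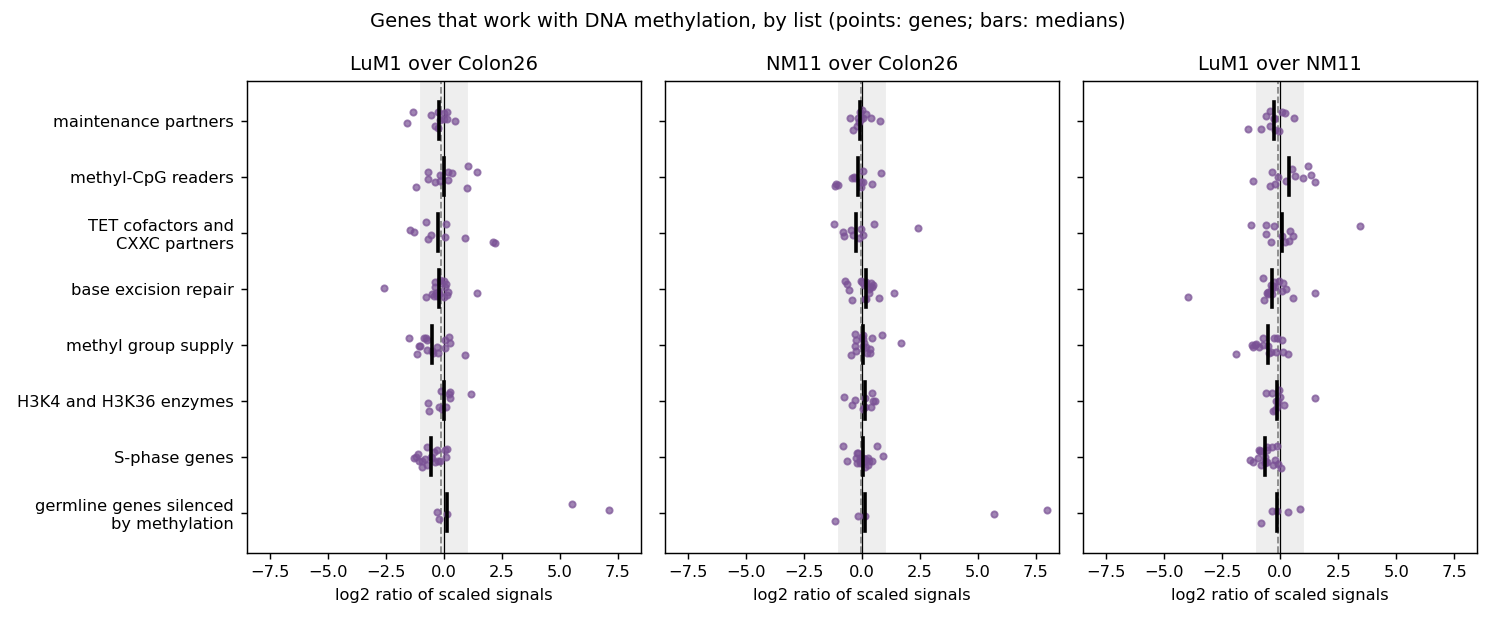
Log2 ratios (horizontal axes) of genes measured on both arrays, by list, in the 3 comparisons. Points are genes, bars are list medians, dashed lines the median of all genes, and grey bands mark less than 2-fold. The medians of the S-phase and methyl group supply lists lie to the left of the dashed line in LuM1 over Colon26 (-0.53 and -0.49), with single genes on both sides, and *Rhox5* and *Dazl* stand far to the right in the germline list.

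Germline genes are a textbook target of promoter methylation in somatic cells, so 18 of them were read as a possible outcome of the machinery. Of these, 12 were not well above background on any array with their representative probe. Those that differed most did so by large factors. *Rhox5*, a homeobox gene of the X chromosome, gave 362.6 in Colon26, 50726 in LuM1 and 91087 in NM11 cells, 140-fold and 251-fold higher in the sublines, and its second probe gave log2 ratios of 7.31 and 8.0. *Dazl*, an RNA-binding protein of germ cells, gave 38.8 in Colon26, 1796 in LuM1 and 1974 in NM11 cells, 46.3-fold and 50.8-fold higher, and its second probe was not well above background in Colon26 cells and at 1905 and 2361 in the sublines. Both genes were thus high in both sublines and low in the parental line. *Dppa3*, a protein of oocytes that binds UHRF1, was well above background in NM11 cells alone, at 57.8 on 1 of its 2 probes. *Taf7l*, a transcription factor subunit of the testis, spanned 1350 to 1679, and *Sycp1*, of meiotic chromosomes, was lowest in NM11 cells (60.7, 49.0 and 27.0). *Brdt*, a testis bromodomain protein, spanned 93.5 to 119.8 on its brightest probe, but its other probes differed from this. One gave 52.7 in Colon26, 137 in LuM1 and 92.2 in NM11 cells, 2.60-fold and 1.75-fold higher in the sublines. The dimmest was not well above background in Colon26 cells and at 33.3 and 32.8 in the sublines. Among the 12 not detected were *Ddx4*, *Sycp3* and *Mael*. A relation between these genes and the methylation enzymes was not tested, since methylation was not measured.

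The labelled cell type was checked with marker genes. Of 10 markers of colon epithelium, 4 were well above background in Colon26 cells, 5 in LuM1 cells and 4 in NM11 cells, with summed signals of 1361, 522.8 and 460.2. *Cdx2* and *Krt20* were among these, while the defining markers *Cdh1*, *Krt18*, *Krt19*, *Vil1* and *Cdx1* were not well above background in any line. All 6 mesenchymal markers were well above background in every line. Of 7 fibroblast markers, 5, 6 and 6 were so, and single markers differed in both directions. *Col1a2*, a collagen chain, gave 59896 in Colon26, 49.6 in LuM1 and 85275 in NM11 cells. It set most of the summed signals of 66332 in Colon26 and 105811 in NM11 cells, but not of the 35905 in LuM1 cells. *Dcn*, a matrix proteoglycan, was not well above background in Colon26 cells and gave 27503 in LuM1 and 9599 in NM11 cells, and *Pdgfra*, a growth factor receptor, gave 218, 3965 and 1286. Of 6 myeloid markers, 3, 4 and 3 were so, with summed signals of 5902, 12884 and 5250. *Itgam*, an integrin chain, gave the largest of these signals in each line, with 5027 in Colon26, 6818 in LuM1 and 4251 in NM11 cells. *Csf1r*, a growth factor receptor, was also well above background in every line, at 682, 691 and 675. *Cd68*, a lysosomal protein, was 30.5-fold higher in LuM1 cells (5251) than in Colon26 cells (172.3), and *Lyz2*, a lysozyme, was well above background in LuM1 cells alone and at least 4.24-fold higher, while *Ptprc* and *Adgre1*, which define blood cells and macrophages, were at background in all lines. Of 4 endothelial markers, 1 was so in each line. The part of these markers in the levels of the 10 genes was not tested.

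No spot of the 10 genes was marked as an outlier, and no spot of an array was saturated. Among spots within 10 rows and columns of each of them, the median log2 ratio lay between -0.22 and 0.05. Less this median, the log2 ratio of LuM1 over Colon26 was -1.79 for *Tdg* and -0.93 for *Dnmt3a*, the latter no longer 2-fold, and that of *Tet2* was 0.33. The scaling moves every ratio of a comparison alike. Relative to the scaling used here, the authors' processed values moved the median of all genes in LuM1 over Colon26 by 0.45 and in LuM1 over NM11 by 0.41, scaling to *Hprt* moved it by -0.49 in NM11 over Colon26 and by 0.59 in LuM1 over NM11, scaling to the E1A spike-in controls moved these by -0.33 and 0.33, and signals without scaling moved LuM1 over NM11 by 0.18. Of the genes at least 2-fold different, 52.5%, 51.3% and 56.6% were higher in LuM1 over Colon26, NM11 over Colon26 and LuM1 over NM11. These shares became 77.7% in the former and 81.4% in the latter with the authors' values, 20.1% in NM11 over Colon26 and 87.8% in LuM1 over NM11 with *Hprt*, 28.7% and 77.3% with E1A, and 68.6% in LuM1 over NM11 without scaling. Differences between genes of an array pair, such as that between *Tdg* and the median gene, do not depend on any of these factors.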

How the data were processed

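Total RNA of each line was labelled with Cy3 and hybridized to a SurePrint G3 mouse array, n = 1 per line. Per the file headers, the deposited spot intensity is background-subtracted, detrended and linear (Agilent Feature Extraction 11.5.1.1). Other deposited columns hold flags of 0 or 1 (outlier, saturated, well above background). The authors also deposited processed intensity values, found here to be the former times a constant of 0.654 (Colon26), 0.829 (LuM1) or 0.706 (NM11).

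Control and outlier spots (137, 74 and 99 on the Colon26, LuM1 and NM11 arrays) were left out, spots of a probe averaged, and the 75th percentiles (581.1, 625.1 and 551.5) brought to 585.1. Of the probes, 49.9%, 53.8% and 52.5% were well above background. A probe that was so on only 1 array of a pair gives a bound, taken against its dim signal or, if higher, the dimmest signal well above background (26.4, 20.1 and 19.6). RefSeq accessions in a GRCm38.p6 gene table named 58.3% of 56605 probes. Probe coordinates are not given, since the arrays were designed on mm9. Precision is limited by the number of arrays.

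The 10 genes and the lists were chosen with earlier results of these data known. All 10 are named with every probe, and from each list up to 4 genes by the largest log2 ratio and up to 2 by the largest bound. *Pcna*, *Mki67*, *Nsd3*, *Apex1*, *Polb*, *Taf7l*, *Ddx4*, *Sycp3*, *Mael* and the marker genes named were chosen after their values were seen. A gene that the rule also names is not reported here.

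Alternatives were signals left unscaled, scaling to *Hprt*, to E1A controls or to the median measured probe, quantile normalization, normexp (offset 50), the authors' values, measured taken as significantly above background, keeping dim probes, the mean over probes, the probe brightest in LuM1 cells, and thresholds of 1.5-fold and 4-fold. Centring on neighbouring spots was chosen after seeing the data. The calls were run on simulated arrays with 4-fold changes set in bright genes only. That run did not cover changes near 2-fold, dim probes or bounds. Software was Python 3.11.15 (pandas 2.3.3, numpy 2.4.6, matplotlib 3.10.9, scipy 1.17.1) and, for normexp, limma 3.58.1 in R 4.3.3.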

Additional observations from a re-analysis of the deposited data

Results flagged for a closer look

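*Cxxc5*, *Gadd45b*, *Shmt1* and *Cdc6* moved in opposite directions from Colon26 cells in the 2 sublines, each by more than 2 scanner errors. For *Cxxc5* the log2 ratio over Colon26 was 2.22 in LuM1 and -1.22 in NM11 cells. For *Gadd45b* it was -2.60 in LuM1 and 1.36 in NM11 cells. For *Shmt1* it was -1.05 in LuM1 and 0.88 in NM11 cells, and for *Cdc6*, which loads the replicative helicase, -0.75 and 0.45. For *Cdc6* the ratio of NM11 over Colon26 was -0.042 with scaling to *Hprt* and 0.12 with E1A controls, so its opposite directions depend on the scaling. The signs of the other 3 genes were the same under all 7 scalings tried. With 1 array per line these differences were not tested. None of the 10 writers and erasers did so.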

How the results depend on the processing

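Of 120 alternative values of the counts and medians of the 10 genes, 95 stayed close to those reported and 25 moved. Counts have no sign and no median reported was 2-fold, so these values could not show a 2-fold difference reversing. The medians of LuM1 over Colon26 and of LuM1 over NM11 changed sign in some settings. In LuM1 over Colon26, the number at least 2-fold higher was 1 with the authors' processed values and 1 at 1.5-fold. The number lower was 1 without scaling, with *Hprt*, with normexp, with the authors' values, centred on neighbouring spots and at 4-fold, where *Dnmt3a* was the gene lost in each case, and the median was 0.33 with the authors' values. In NM11 over Colon26, 2 genes were higher at 1.5-fold. The number lower was 2 with *Hprt* and at 1.5-fold, and 1 with E1A controls and with the mean over probes, and the median was -0.63 with *Hprt* and -0.47 with E1A. In LuM1 over NM11, 1 gene was higher with *Hprt*, with E1A, with the authors' values and at 1.5-fold, and 0 were lower with *Hprt* and at 4-fold. There the median was 0.19 with *Hprt*, -0.075 with E1A and 0.012 with the authors' values. Another scaling shifts every ratio alike, which by construction moves these counts and medians, and for the other settings the cause was not tested.

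No paired analysis was possible because each line has 1 array. For the same reason leaving out a replicate could not be run. Dim signals limit *Tet1*, *Tet3* and the second probes of *Dnmt3a*, *Tet2* and *Tet3*. Some small ratios changed sign with the scaling. Those of *Dnmt1* and *Tet3* in LuM1 over Colon26 turned positive without scaling, with *Hprt* and with the authors' values, and those of *Dnmt3a* and *Tet1* in LuM1 over NM11 turned positive with *Hprt*, E1A and the authors' values, and that of *Uhrf2* in NM11 over Colon26 turned to -0.02 with *Hprt*.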
